A study of Mus musculus with 18 samples.

Results

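Frizzled and LRP genes encode the receptors through which Lgr5+ cells sense Wnt, and their RNA was followed here in cells of the centre, border and row >3 of small intestinal (SI) and large intestinal (LI) crypts. The set consists of the 10 genes Fzd1, Fzd3, Fzd4, Fzd5, Fzd6, Fzd7, Fzd8, Fzd9, Lrp5 and Lrp6, taken by symbol from 43346 genes in the count table. These are 8 Frizzled receptors and 2 LRP co-receptors, and all 10 were among the 26717 genes tested. Cells came from untreated C57BL/6 mice of genotype Lgr5_eGFP_Iris_creERT2 (written Lgr5eGFP-Ires-CreERT2 in the study), aged 8 to 20 weeks by the labels, in which GFP is made from the Lgr5 locus. EPCAM+ cells were sorted by their GFP signal, with high GFP taken as centre, medium GFP as border and low GFP as row >3 cells, so position was read from GFP and not from the crypt itself. Each of the 6 groups (3 levels in SI and 3 in LI) had 3 replicates, which gave 18 libraries, and all groups carried the same reporter allele and no treatment. By the methods and a legend of the study these are biological replicates from 3 mice, and no label ties a replicate number to a mouse. Another legend, for the border and centre comparisons of the same RNA data, gives a different number of mice.

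Frizzled receptors are proteins with 7 membrane-spanning segments that bind secreted, lipid-modified Wnt proteins through a cysteine-rich domain outside the cell. Together with LRP5 or LRP6, bound Frizzled recruits Dishevelled and Axin to the membrane, which stabilizes beta-catenin and turns on its target genes with TCF factors. Some Frizzleds also act without LRP in planar cell polarity. In the intestine Wnt signalling keeps stem cells at the crypt base, the LGR receptors that bind R-spondin protect Frizzleds from removal, and the ubiquitin ligases RNF43 and ZNRF3 remove them from the cell surface.

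Between 8312093 and 31940965 reads were counted per library. Lgr5 RNA followed the sort, with 119.8 to 254.7 CPM (read counts scaled to library size, with TMM factors) in SI centre, 7.84 to 98.1 in SI border and 1.40 to 13.5 in SI row >3 libraries, and with 111.8 to 127.0, 61.4 to 82.7 and 6.70 to 24.0 CPM in those of LI. The lowest SI border value, 7.84 CPM, belonged to replicate 3 and lay within the range of the SI row >3 libraries. The SI replicate 3 libraries stood apart in a further way. LI genes, taken as genes of at least 20 CPM in all LI libraries of a level and at least 20-fold their SI replicate 1 value (47, 42 and 30 genes in centre, border and row >3), had a median of 64.3%, 84.7% and 79.7% of their LI level in SI replicate 3, against 1.63%, 1.38% and 1.09% in SI replicate 2. The receptors' main SI values, and the calls of the pathway lists, are therefore also given without these 3 libraries. Since they were singled out by their LI genes, leaving them out favours larger differences between the sites. Site differences in that setting are therefore no independent support. The epithelial markers summed to between 3163 and 8202 CPM in every library, while those of stromal cells summed to at most 20.6, of endothelial cells to at most 10.3, of smooth muscle to at most 1.28, of enteric neurons and glia to at most 4.45 and of immune cells to at most 29.0 CPM. In bulk libraries fewer cells of a type and less RNA per cell cannot be told apart.

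On GRCm38 (mm10, GENCODE M21), Fzd5 (ENSMUSG00000045005) and Fzd7 (ENSMUSG00000041075) both lie on chromosome 1, at positions 64730558 to 64737751 on the minus strand and 59482424 to 59486955 on the plus strand. Fzd4 (ENSMUSG00000049791) is on chromosome 7 from 89404355 to 89413134, Fzd3 (ENSMUSG00000007989) on chromosome 14 from 65192449 to 65262463 and Fzd6 (ENSMUSG00000022297) on chromosome 15 from 39006034 to 39038188. Fzd1 (ENSMUSG00000044674) and Fzd9 (ENSMUSG00000049551) are on chromosome 5, from 4753839 to 4758035 and from 135248938 to 135251230. Fzd8 (ENSMUSG00000036904) is on chromosome 18. Lrp5 (ENSMUSG00000024913) lies on chromosome 19 from 3584828 to 3686564 and Lrp6 (ENSMUSG00000030201) on chromosome 6 from 134446476 to 134566965. Fzd1, Fzd7, Fzd8 and Fzd9 consist of 1 exon. Exons of Fzd5 and Fzd6 overlap opposite-strand genes of low level (Gm38058, at most 2.46 CPM, and Gm26704, at most 0.812 CPM), and since the strand used in counting is unknown here, a small share of their reads is uncertain. Proteins translated from the annotated coding sequences paired Fzd1 with Fzd7 (81.6% identical aligned residues), Fzd5 with Fzd8 (71.0%), Lrp5 with Lrp6 (69.6%), Fzd4 with Fzd9 (53.9%) and Fzd3 with Fzd6 (53.0%). Each of the 8 Frizzled proteins held 1 KTXXXW motif, the stretch after the last membrane segment that binds Dishevelled, and Lrp5 and Lrp6 each held 2 PPPSP motifs, whose phosphorylated form binds Axin.

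The upstream sequences of Fzd7 and Fzd5 are shown since these 2 genes differed in opposite directions between row >3 and centre cells of SI. Each is the 250 bases before the RefSeq start on GRCm38.p6, written 5′ to 3′ on the strand of the gene, from chr1:59481897-59482146 for Fzd7 and chr1:64737751-64738000 for Fzd5. The RefSeq start of Fzd7 lies upstream of the GENCODE start. Capitals mark AACAAAG, which is CTTTGTT on the other strand, 1 of 2 forms of the core that TCF factors bind that were searched.

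Fzd7: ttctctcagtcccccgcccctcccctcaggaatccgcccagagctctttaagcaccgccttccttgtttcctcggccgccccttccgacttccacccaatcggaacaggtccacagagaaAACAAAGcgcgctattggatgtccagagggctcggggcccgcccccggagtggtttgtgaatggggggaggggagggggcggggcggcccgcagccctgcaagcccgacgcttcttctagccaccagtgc

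Fzd5: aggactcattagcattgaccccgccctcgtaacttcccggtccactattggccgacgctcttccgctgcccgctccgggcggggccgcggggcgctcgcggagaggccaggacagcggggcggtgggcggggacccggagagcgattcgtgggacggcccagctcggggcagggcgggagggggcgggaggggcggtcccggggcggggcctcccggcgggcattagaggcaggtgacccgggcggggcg

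CTTTGTT and CTTTGAT were searched on both strands in the 250 bases before the start of each RefSeq promoter entry. The Fzd7 match lies 130 to 124 bases before the start, and Fzd5 had no match of either form there. Of 32851 such sequences, 5.03% held CTTTGTT and 3.21% held CTTTGAT. Among the 5 members with an entry (Fzd1, Fzd4, Fzd5, Fzd7 and Fzd9), Fzd7 alone held CTTTGTT and none held CTTTGAT, which says only that these letters are or are not in these bases. GC content was 65.2% for the Fzd7 and 76.4% for the Fzd5 sequence.

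To compare levels between genes, CPM were divided by the exon length in kb. On this scale 3 members stood at the top in all 6 groups, with group means between 11.6 and 22.4 CPM per kb for Fzd5, between 11.1 and 14.9 for Lrp6 and between 10.05 and 12.9 for Lrp5. In SI centre cells Fzd5 (12.7), Lrp6 (12.5) and Lrp5 (11.5 CPM per kb) overlapped between libraries, followed without overlap by Fzd7 (8.48), Fzd6 (2.77) and Fzd1 (1.90). The members below these, Fzd8 (0.790), Fzd9 (0.515), Fzd3 (0.370) and Fzd4 (0.129 CPM per kb), overlapped with their neighbours in the order. In LI centre cells the order was Lrp6 (14.005), Fzd5 (11.6), Lrp5 (10.2), Fzd7 (7.21), Fzd1 (3.76) and Fzd6 (2.72 CPM per kb), with overlap between Fzd5 and Lrp5 and between Fzd1 and Fzd6. Fzd8 (1.45), Fzd4 (0.660), Fzd3 (0.441) and Fzd9 (0.224) closed the LI order, with no overlap between Fzd8 and Fzd4. In row >3 cells Fzd7 stood beside Fzd1 and Fzd6, at 1.93 CPM per kb in SI and 2.72 in LI, and the libraries of Fzd7 overlapped with those of both. Fzd5 was above all other members in SI row >3 cells (22.4 CPM per kb), without overlap with Lrp6 (13.7), while in LI row >3 cells Lrp6 (14.9) and Fzd5 (14.3) overlapped.

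**Figure D1:**
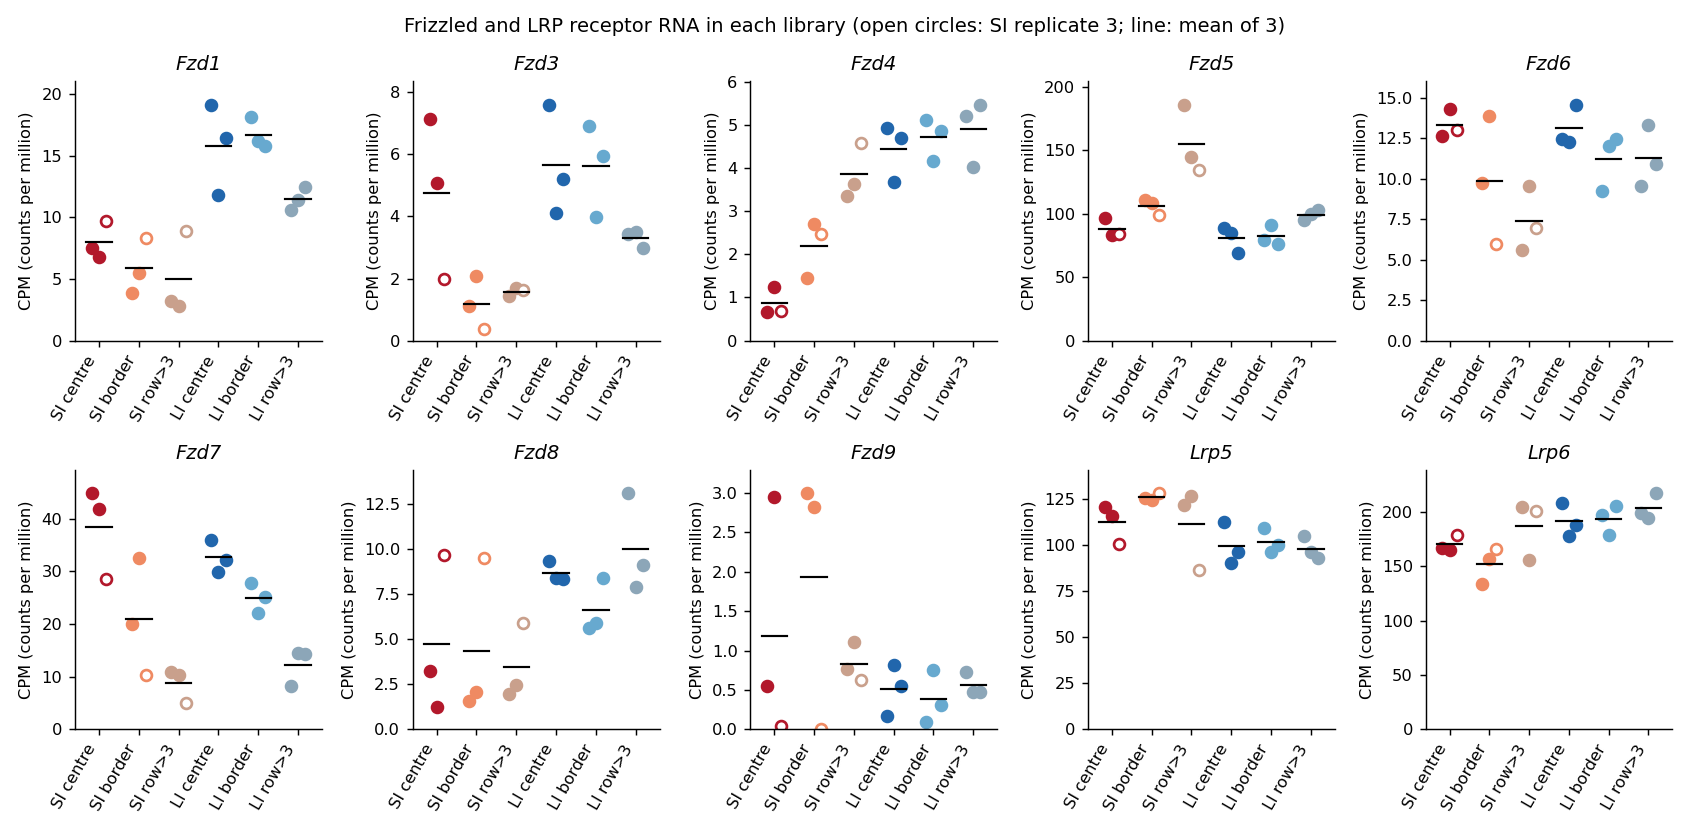
Level of each of the 10 receptors in CPM (vertical axes, linear from 0) in the 18 libraries by group, with a line at the mean of 3 libraries and open circles for SI replicate 3. Fzd7 libraries of row >3 lie below those of the centre in both sites, Fzd5 was highest in SI row >3, and Fzd4 was lowest in SI centre cells (0.668 to 1.25 CPM).

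Together the 8 Frizzled genes summed to between 21.8 and 32.5 CPM per kb over the 18 libraries and their composition is described next. In SI, Fzd5 made up 43.0 to 47.8% of this sum in centre, 53.8 to 65.6% in border and 74.2 to 82.8% in row >3 libraries. Fzd7 went the other way, from 24.9 to 33.3% in centre over 10.5 to 24.5% in border to 4.26 to 8.34% in row >3. The LI ranges for Fzd5 were 37.2 to 45.6%, 43.0 to 49.4% and 56.6 to 58.2%, and those for Fzd7 were 24.6 to 26.5%, 18.3 to 23.5% and 7.67 to 12.5%. The ratio of Fzd5 to Fzd7 on the per-kb scale was thus 1.30 to 1.92 in SI centre and 9.14 to 17.4 in SI row >3 libraries, and 1.40 to 1.85 and 4.54 to 7.59 in those of LI. These shares are a description, and the tests were made gene by gene. Fzd1 held 2.34 to 9.15% of the sum in SI libraries and 10.5 to 16.6% in LI libraries, and the upper SI values, from 8.14 to 9.15%, were those of replicate 3.

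**Figure D2:**
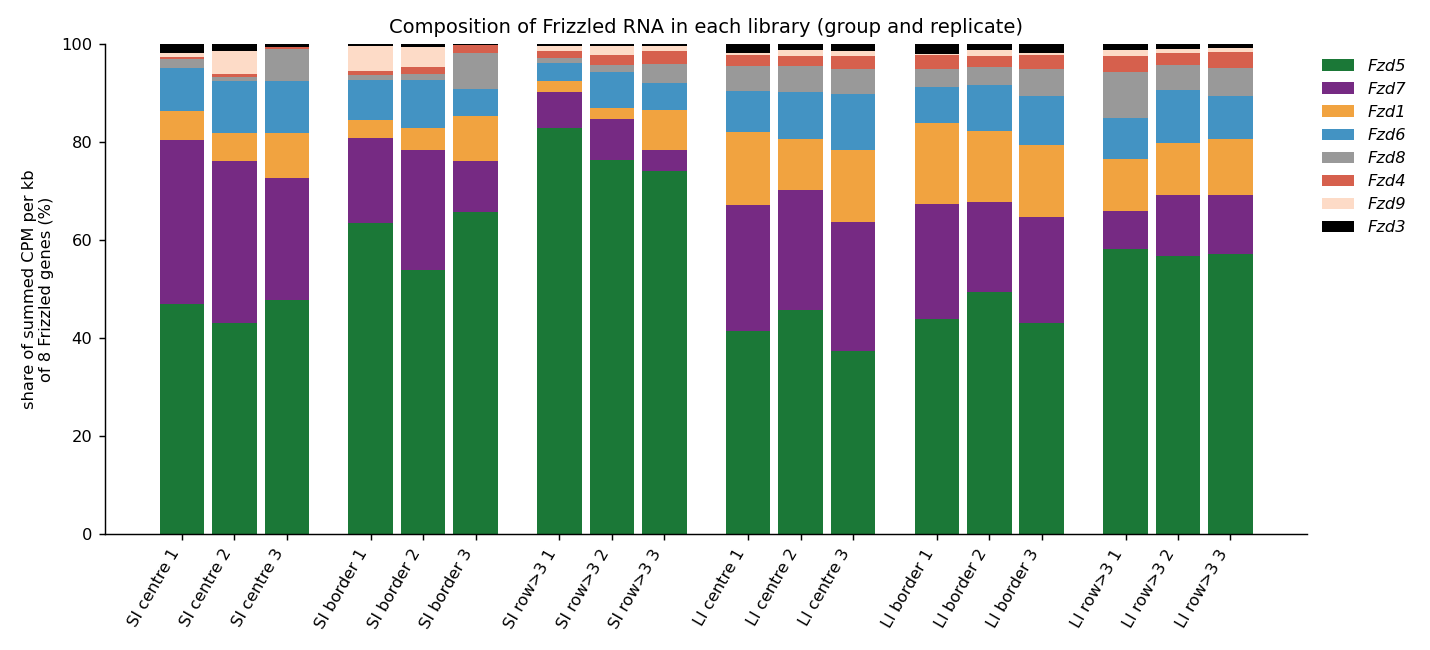
Share of each Frizzled gene (vertical axis, %) in the summed CPM per kb of the 8 Frizzled genes, with 1 bar per library, grouped by site and level. Fzd5 (lowest segment) takes 74.2 to 82.8% in SI row >3 and 56.6 to 58.2% in LI row >3 libraries, where the Fzd7 segment is smaller than in the centre.

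Row >3 cells were first compared with centre cells in SI, which among the 9 comparisons had the most genes called. Of the 10 members 5 passed an adjusted p of 0.05 (edgeR's quasi-likelihood test, Benjamini-Hochberg over all 26717 genes), in a comparison where 13.2% of all genes did. Fzd3, Fzd6 and Fzd7 were lower and Fzd4 and Fzd5 higher in row >3 cells. The members' median absolute log2 fold change was 0.80, against 0.67 over all genes tested and 0.49 over the 12977 genes with a mean of at least 1 CPM. Comparisons within a site share their centre libraries, and those between the sites use the same libraries again, so the comparisons are not independent of each other.

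Fzd7, a receptor linked to Wnt responses of intestinal stem cells, measured 44.8, 41.8 and 28.6 CPM in SI centre, 20.0, 32.5 and 10.4 in SI border and 10.9, 10.3 and 5.05 in SI row >3 libraries (replicates 1, 2 and 3). Every centre library was above every row >3 library, and replicate 3 was the lowest at each level. The log2 fold change of row >3 against centre was -2.10 (SE 0.34, adjusted p = 3.38e-04). Without the SI replicate 3 libraries it was -2.02 (SE 0.25, adjusted p = 3.66e-06), and the call held in all 16 alternatives (adjusted p from 3.23e-07 to 0.00334).

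Fzd5, which mouse Paneth cells need to mature, measured 96.5, 82.9 and 83.7 CPM in SI centre and 185.8, 144.2 and 134.1 CPM in SI row >3 libraries, with border libraries in between at 110.4, 108.5 and 99.0 CPM. The 3 groups did not overlap. Its log2 fold change was 0.82 (SE 0.15, adjusted p = 9.82e-04), 0.89 without SI replicate 3 (SE 0.17, adjusted p = 5.55e-04), and it was called in all 16 alternatives (adjusted p from 1.26e-05 to 0.0414). Paneth cell markers, of which 0 of 8 were called, summed to 1889 to 8958 CPM in SI centre and 233.0 to 5026 CPM in SI row >3 libraries, and their part in the result was not tested.

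Fzd4, which also serves as the receptor of the Norrin ligand in vessels, was rare in SI centre cells at 0.668, 1.25 and 0.689 CPM, or 17, 28 and 15 reads. It measured 1.44, 2.70 and 2.47 CPM in SI border and 3.35, 3.63 and 4.58 CPM in SI row >3 libraries, where 101, 95 and 59 reads were counted. The 3 groups did not overlap. The log2 fold change of row >3 against centre was 2.12 (SE 0.38, adjusted p = 7.73e-04), 1.89 without SI replicate 3 (SE 0.46, adjusted p = 0.00520), and the call held in all 16 alternatives (adjusted p from 5.85e-08 to 0.0133). Endothelial markers summed to 5.42 to 8.31 CPM in SI centre and to 2.52 to 5.43 CPM in SI row >3 libraries, and 0 of 7 were called higher and 1 lower. Cdh5 was at 0 in all libraries of both groups and Cldn5 in all those of SI row >3. The part of endothelial cells in the result was not tested.

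Fzd3, a receptor of planar cell polarity, measured 7.15, 5.09 and 1.97 CPM in SI centre and 1.43, 1.68 and 1.63 CPM in SI row >3 libraries, which did not overlap, although centre replicate 3 lay close to the row >3 values. Its log2 fold change was -1.60 (SE 0.47, adjusted p = 0.0244) and -1.98 without SI replicate 3 (SE 0.41, adjusted p = 0.00119). Fzd6, its closest relative among the members, measured 12.7, 14.3 and 12.99 CPM in SI centre and 5.61, 9.58 and 6.99 CPM in SI row >3 libraries, again without overlap, with a log2 fold change of -0.85 (SE 0.28, adjusted p = 0.0469) and of -0.83 without SI replicate 3 (SE 0.28, adjusted p = 0.0450). Leaving out 1 library ended the Fzd3 call in 5 of 6 cases, all but that of SI centre replicate 3, and the Fzd6 call in 5 of 6 cases, all but that of SI row >3 replicate 2 (over all alternatives, adjusted p from 0.00119 to 0.182 for Fzd3 and from 0.00430 to 0.253 for Fzd6).

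Fzd1, among the members the closest relative of Fzd7, measured 7.51, 6.75 and 9.73 CPM in SI centre and 3.19, 2.79 and 8.93 CPM in SI row >3 libraries. Replicate 3 was the highest at both levels, and its row >3 value lay within the range of the centre libraries. The log2 fold change of -0.78 (SE 0.36, adjusted p = 0.179) was not called, and it was -1.40 (adjusted p = 0.00553) without SI row >3 replicate 3, -0.49 (adjusted p = 0.540) without SI row >3 replicate 2 and -0.53 (adjusted p = 0.544) without SI row >3 replicate 1. It was -1.24 (SE 0.31, adjusted p = 0.00622) without SI replicate 3, where 6 members and 17.1% of all genes passed. Equal replicate numbers deviated together within a site, and with the replicate number as a block Fzd1 was called as well (log2 fold change -0.84, SE 0.26, adjusted p = 0.0243), beside the 5 others and 22.8% of all genes. The log2 fold changes of the remaining members were between -0.56 and 0.13 (Fzd8, Fzd9, Lrp5 and Lrp6), and without SI replicate 3 between -0.86 (Fzd9) and 0.12, with Fzd8 at -0.05.

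Markers of differentiated cells moved with this comparison. Goblet cell markers, of which 6 of 7 were called higher and 1 lower, summed to 674 to 10030.3 CPM in SI centre and 31084 to 50710.2 CPM in SI row >3 libraries, and those of enterocytes and colonocytes (3 of 7 called higher) to 82.6 to 254.4 and 674.8 to 1528 CPM. No marker of either list was at 0 in all libraries of an SI group. The crypt base markers (4 of 6 called lower, with Lgr5, on which the sort was made, in the list) summed to 1545 to 5440 CPM in SI centre and 84.6 to 693.3 CPM in SI row >3 libraries. In LI the goblet sum was 6733 to 10689.9 CPM in centre and 14917 to 23459 CPM in row >3 libraries, with 0 of 7 markers called, where 0.0187% of all genes were. At an unadjusted p under 0.05 there were 4 of these 7, and 6.96% of all genes. The LI enterocyte and colonocyte sum was 117.2 to 143.8 CPM in centre and 190.6 to 295.3 CPM in row >3 libraries, with 0 of 7 markers at an unadjusted p under 0.05. Of the epithelial markers 4 of 7 were called higher in SI row >3 cells, with sums of 3163 to 4424 CPM in SI centre and 7205 to 8202 CPM in SI row >3 libraries. Tuft cell markers (1 of 6 called higher) summed to 19.5 to 332.0 and 66.5 to 271.7 CPM, and enteroendocrine markers (1 of 7 called higher) to 2.89 to 251.9 and 39.2 to 478.0 CPM. The part of these cells in the receptor differences was not tested.

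**Figure D3:**
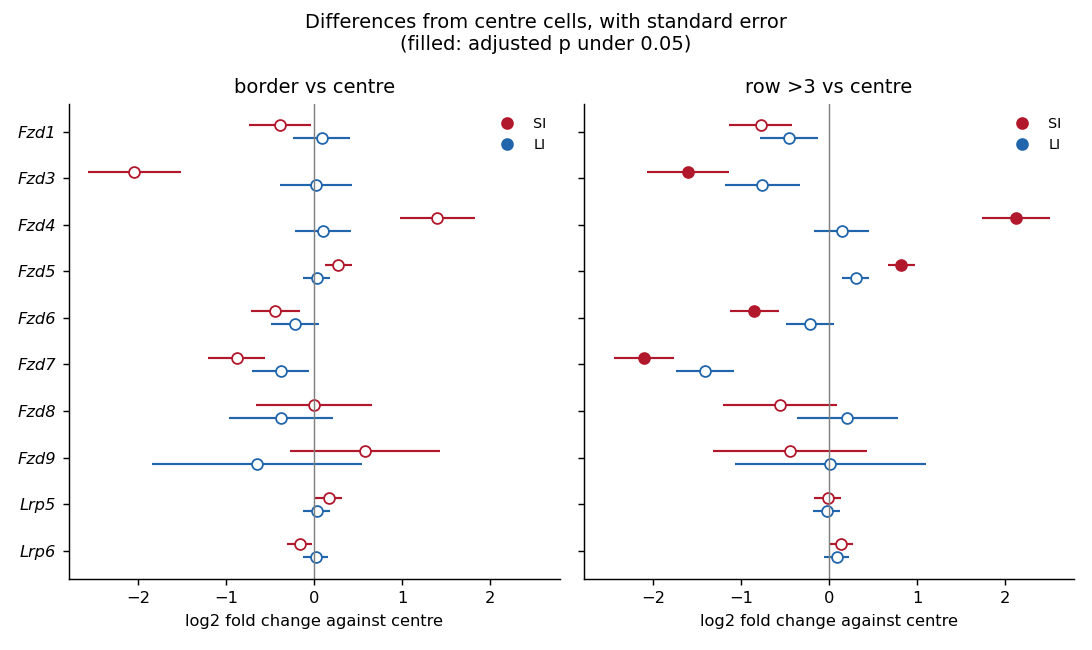
Log2 fold change (horizontal axis, with SE) of border (left) and row >3 cells (right) against centre cells for the 10 receptors in SI (red) and LI (blue), with filled points for an adjusted p under 0.05. The 5 filled points, all in SI row >3, run from -2.10 for Fzd7 to 2.12 for Fzd4, and Lrp5 and Lrp6 lie near 0 in each contrast.

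In LI, 0 of the 10 members passed an adjusted p of 0.05 between row >3 and centre cells, where 5 genes (0.0187%) of all tested did. At an unadjusted p under 0.05 there was 1 member, Fzd7, and 6.96% of all genes, and DESeq2 called 1 member, also Fzd7, and 0.707% of the genes to which it gave an adjusted p. Fzd7 measured 36.0, 29.9 and 32.1 CPM in LI centre, 27.8, 22.1 and 25.2 in LI border and 8.21, 14.4 and 14.3 in LI row >3 libraries, and these 3 groups did not overlap. Its log2 fold change of row >3 against centre was -1.40 (SE 0.33, unadjusted p = 3.71e-04, adjusted p = 0.215). Blocked by replicate number within LI and SI it was called (log2 fold change -1.40, SE 0.21, adjusted p = 0.00147), the sole member among 2.59% of all genes, and adjusted p values of all 15 alternatives lay between 0.00147 and 1. Fzd5 measured 88.4, 84.5 and 68.7 CPM in LI centre and 95.001, 99.97 and 102.7 CPM in LI row >3 libraries, without overlap, at a log2 fold change of 0.30 (SE 0.15, adjusted p = 0.741). Fzd3 measured 7.60, 4.12 and 5.21 CPM in LI centre and 3.42, 3.48 and 2.98 CPM in LI row >3 libraries, also without overlap, at -0.76 (SE 0.42, adjusted p = 0.794). The other members had log2 fold changes between -0.45 and 0.21.

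Whether the step from centre to row >3 differed between the sites was tested directly, as the SI difference minus the LI difference. None of the 10 members and 0% of all genes passed the adjusted p. At an unadjusted p under 0.05 there were 2 members, Fzd4 and Fzd5, and 6.74% of all genes, and DESeq2 called 1 member, Fzd4, and 1.01% of its genes. For Fzd4 the SI step was 1.98 log2 units above the LI step (SE 0.50, unadjusted p = 6.86e-04, adjusted p = 0.206). In LI it measured 4.93, 3.67 and 4.71 CPM in centre and 5.20, 4.03 and 5.47 CPM in row >3 libraries. With the replicate block within site this difference was called (1.98, SE 0.45, adjusted p = 0.0278), as were 2.32% of all genes, and without SI replicate 3 it was 1.75 (SE 0.55, adjusted p = 0.0962). Over all 22 alternatives its adjusted p lay between 0.00597 and 0.577. For Fzd5 the difference was 0.52 (SE 0.22, adjusted p = 0.613), and for Fzd7 it was -0.70 (SE 0.46, adjusted p = 0.925), with an interval from -1.70 to 0.31 (95%, from the SE and 12 residual degrees of freedom). Without SI replicate 3 these were 0.59 (SE 0.22, adjusted p = 0.190) and -0.61 (SE 0.32, adjusted p = 0.509).

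Border cells were compared with centre cells in the same fit. In SI, 0 of 10 members and 3 genes (0.0112%) of all passed the adjusted p, while 3 members and 8.98% of all genes had an unadjusted p under 0.05. DESeq2 called 2 members, Fzd3 and Fzd4, and 1.25% of the genes it gave an adjusted p. Fzd3 measured 1.11, 2.07 and 0.368 CPM in SI border libraries, with a log2 fold change of -2.04 (SE 0.53, adjusted p = 0.191) that rests on 10, 33 and 7 reads at the border. The border and centre libraries overlapped, since centre replicate 3 (1.97 CPM) lay below border replicate 2. Fzd4 had a log2 fold change of 1.40 (SE 0.42, adjusted p = 0.275) and Fzd7 of -0.88 (SE 0.33, adjusted p = 0.395). Under the same block Fzd3 (-1.94, SE 0.45, adjusted p = 0.0280) and Fzd7 (-0.94, SE 0.21, adjusted p = 0.0259) were called, beside 2.32% of all genes. Without the SI replicate 3 libraries, where 0.963% of all genes passed, none of the 3 was called (Fzd3 -1.86, SE 0.49, adjusted p = 0.0811, Fzd4 1.22, SE 0.58, adjusted p = 0.699, and Fzd7 -0.71, SE 0.25, adjusted p = 0.334). The Fzd3 value depended on single libraries, at -2.92 without SI border replicate 2 (adjusted p = 0.0469), -2.42 without SI centre replicate 3 (adjusted p = 0.0124) and -1.50 without SI border replicate 3 (adjusted p = 0.965). Fzd7 was at -1.37 with border replicate 2 of SI left out and at -0.54 with border replicate 3 left out. Fzd5 (0.27, SE 0.15, adjusted p = 0.648) and Lrp5 (0.17, SE 0.15, adjusted p = 0.865) did not overlap between border and centre libraries but were not called, and the other members lay between -0.44 and 0.57. Without the SI replicate 3 libraries Fzd5 was at 0.28 (SE 0.17), Lrp5 at 0.07 (SE 0.16) and the others between -0.56 and 0.76, and with only SI centre replicate 3 left out Lrp5 was at 0.08. Enterocyte and colonocyte markers (1 of 7 called higher) summed to 82.6 to 254.4 CPM in SI centre and 275.4 to 963.4 CPM in SI border libraries. Of goblet cell markers 3 of 7, and of tuft cell markers 3 of 6, had an unadjusted p under 0.05. Goblet sums were 674 to 10030.3 and 4117 to 13181 CPM, and tuft sums 19.5 to 332.0 and 208.3 to 654.7 CPM. The part of these cells in the receptor differences was not tested.

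In LI, 0 of 10 members and 0% of all genes differed between border and centre at the adjusted p, and 0 members and 1.38% of all genes had an unadjusted p under 0.05. DESeq2 called 0 members and 0% of its genes. Fzd7 was lower in every LI border library than in every LI centre library, at a log2 fold change of -0.38 (SE 0.32, adjusted p = 1), and the others lay between -0.65 and 0.10. For the difference of this step between the sites, 0 members and 0% of all genes passed, 2 members and 2.65% of all genes had an unadjusted p under 0.05, and DESeq2 called 0 members and 0.00751% of its genes. These 2 were Fzd3 (-2.07, SE 0.67, adjusted p = 1) and Fzd4 (1.30, SE 0.53, adjusted p = 1), at -1.91 (SE 0.58, adjusted p = 0.460) and 1.11 (SE 0.65, adjusted p = 1) without SI replicate 3.

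SI and LI cells were then compared at each level. For Fzd1 all SI libraries lay below those of LI at each of the 3 levels. The LI libraries had 19.1, 11.8 and 16.4 CPM in centre, 18.1, 16.2 and 15.8 in border and 10.6, 11.4 and 12.4 in row >3, and the SI border libraries 3.88, 5.52 and 8.37 CPM. The log2 fold change of SI against LI was -0.98 for centre (SE 0.33, adjusted p = 0.140), -1.45 for border (SE 0.35, adjusted p = 0.0319) and -1.30 for row >3 cells (SE 0.35, adjusted p = 0.0370), so that the test was passed in border and row >3 cells. At each level replicate 3 was the library nearest to LI. Without these libraries the values were -1.09 (SE 0.25, adjusted p = 0.00465), -1.74 (SE 0.30, adjusted p = 3.05e-04) and -1.88 (SE 0.28, adjusted p = 3.94e-05), all called. Leaving out the SI libraries nearest to LI favours a wider gap between the sites, so these calls are no independent support. With 1 library left out in turn, the border call held in 1 of 6 cases (without SI border replicate 3) and the row >3 call in 1 of 6 (without SI row >3 replicate 3), with adjusted p over all alternatives from 3.05e-04 to 0.155 in border and from 3.94e-05 to 0.268 in row >3 cells.

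In centre cells Fzd1 was thus not called, and 1 member passed the adjusted p, where 1.99% of all genes did. This was Fzd4, at 0.668 to 1.25 CPM in SI and 3.67 to 4.93 CPM in LI centre libraries, with a log2 fold change of -2.34 (SE 0.38, adjusted p = 0.00154). It was -2.17 without SI replicate 3 (SE 0.43, adjusted p = 0.00119) and was called in all 15 alternatives (adjusted p from 1.22e-08 to 0.0233). Fzd4 was not called by edgeR in border cells (-1.05, SE 0.35, adjusted p = 0.150), where SI libraries at 1.44 to 2.70 CPM lay below LI libraries at 4.16 to 5.11 CPM, or in row >3 cells (-0.37, SE 0.32, adjusted p = 0.692), nor without SI replicate 3 (-1.06, SE 0.43, adjusted p = 0.152, and -0.42, SE 0.32, adjusted p = 0.534), and the change of this gap with position is the site difference tested above. The other members lay between -0.88 and 1.08 in centre cells.

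In border cells 2 members, Fzd1 and Fzd3, passed, where 1.76% of all genes did, and DESeq2 called 3, with Fzd4 added (adjusted p = 0.0364), and 7.23% of its genes. Fzd3 measured 0.368 to 2.07 CPM in SI and 3.97 to 6.92 CPM in LI border libraries, with a log2 fold change of -2.29 (SE 0.52, adjusted p = 0.0240), and of -1.70 without SI replicate 3 (SE 0.48, adjusted p = 0.0250). Its call held in 2 of 6 cases with 1 library left out, those without border replicate 2 of SI or of LI. The value was -3.16 with border replicate 2 of SI left out and -1.75 with its border replicate 3 left out (over all alternatives, adjusted p from 0.00195 to 0.0903). Fzd5 was higher in each SI border library than in each LI border library (0.37, SE 0.15, adjusted p = 0.270, and 0.46, SE 0.16, adjusted p = 0.0799 without SI replicate 3).

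In row >3 cells 2 members, Fzd1 and Fzd5, passed, where 4.09% of all genes did. Fzd5 was higher in SI, at 134.1 to 185.8 CPM against 95.001 to 102.7 CPM, with a log2 fold change of 0.64 (SE 0.15, adjusted p = 0.0168) and of 0.80 without SI replicate 3 (SE 0.15, adjusted p = 6.73e-04). Its call held in 2 of 6 cases with 1 library left out (those without SI row >3 replicate 2 or 3), and adjusted p ran from 5.31e-04 to 0.199 over all alternatives. Cell type markers differed between these groups too. Of the Paneth cell markers 5 of 8 were called higher in SI, with sums of 233.0 to 5026 CPM against 3.56 to 12.5 CPM, and Defa21 and Defa22 were at 0 in all LI row >3 libraries. Of the enterocyte and colonocyte markers 5 of 7 were called higher in SI, at 674.8 to 1528 CPM against 190.6 to 295.3 CPM, with Apoa4 at 0 in all LI row >3 libraries. The same counts of both lists were called higher in SI border cells, and 5 of 8 and 2 of 7 in SI centre cells, while 0 of 7 goblet cell markers were called at any level. Their part in the site differences of the receptors was not tested. Fzd3 (-1.07, SE 0.48, adjusted p = 0.270) and Fzd6 (-0.61, SE 0.28, adjusted p = 0.284) were not called, with -1.03 (SE 0.42, adjusted p = 0.130) and -0.52 (SE 0.26, adjusted p = 0.256) without SI replicate 3. Fzd4 and the others, apart from Fzd8, lay between -0.46 and 0.62, and without SI replicate 3 between -0.42 and 0.79.

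Fzd8, among the members the closest relative of Fzd5, and Fzd9 turned on the SI replicate 3 libraries. Fzd8 measured 3.22 and 1.25 CPM in SI centre, 1.55 and 2.07 in SI border and 1.96 and 2.44 in SI row >3 libraries of replicates 1 and 2, but 9.69, 9.47 and 5.90 CPM in replicate 3. The LI libraries had 5.61 to 13.1 CPM. SI replicate 3 lay above the LI libraries in centre and border cells and below them in row >3 cells. With all libraries its log2 fold changes of SI against LI were -0.88 for centre (SE 0.60, adjusted p = 0.570), -0.51 for border (SE 0.63, adjusted p = 0.868) and -1.65 for row >3 cells (SE 0.63, adjusted p = 0.187). Without SI replicate 3 they were -1.88 (SE 0.37, adjusted p = 0.00106), -1.79 (SE 0.47, adjusted p = 0.0156) and -2.12 (SE 0.36, adjusted p = 1.60e-04). Fzd9 measured 2.95, 3.00 and 2.82 CPM in SI centre replicate 2 and in SI border replicates 1 and 2, and at most 1.11 CPM elsewhere. It had 0 reads in SI border replicate 3, where 3 reads would be 0.158 CPM. SI against LI in border cells gave 2.30 (SE 1.06, adjusted p = 0.331) with all libraries and 3.08 (SE 0.77, adjusted p = 0.0108) without SI replicate 3. In this setting 3 members were called between centre, 4 between border and 3 between row >3 cells, where 10.9%, 8.11% and 12.2% of all genes were.

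**Figure D4:**
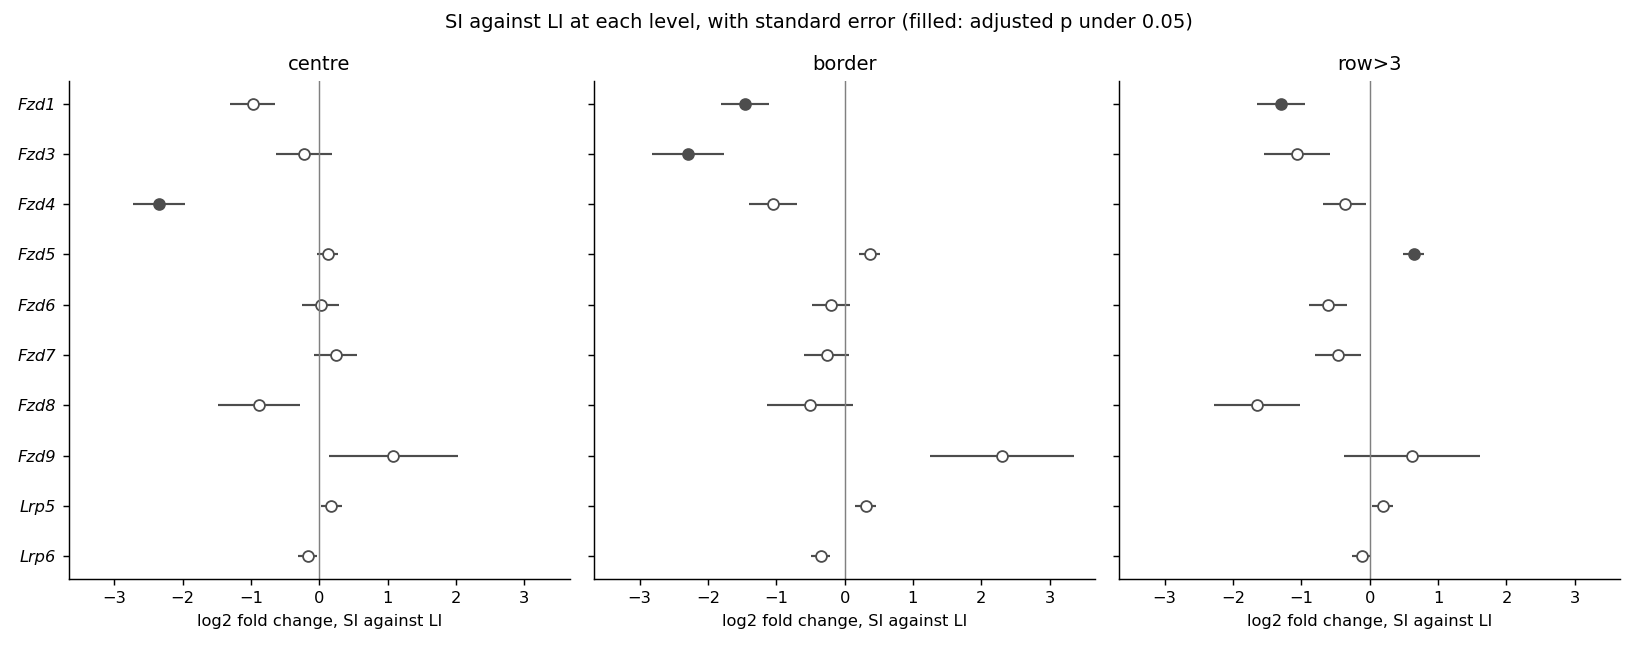
Log2 fold change of SI against LI (horizontal axis, with SE) for the 10 receptors in centre, border and row >3 cells, all libraries included, with filled points for an adjusted p under 0.05. Fzd1 lies below 0 in each panel, Fzd4 lies at -2.34, -1.05 and -0.37, and Fzd5 at 0.64 in row >3 cells.

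The LRP co-receptors showed no difference that passed the test in any of the 9 comparisons. Lrp5 measured 120.8, 115.7 and 100.6 CPM in SI centre, 125.6, 124.4 and 128.0 in SI border and 121.5, 126.3 and 86.2 in SI row >3 libraries, and 90.2 to 112.7 CPM in LI. Lrp6 measured 166.9, 165.2 and 178.8 CPM in SI centre, 133.6, 156.4 and 165.8 in SI border and 204.4, 155.3 and 200.9 in SI row >3 libraries, and 178.1 to 217.0 CPM in LI. Between row >3 and centre cells of SI the log2 fold change was -0.01 for Lrp5 (95% interval -0.35 to 0.32) and 0.13 for Lrp6 (-0.17 to 0.44), and in LI it was -0.03 (-0.36 to 0.31) and 0.09 (-0.22 to 0.39). Without SI replicate 3 the SI values were 0.07 (SE 0.15) and 0.12 (SE 0.16). Border cells of SI and LI did not overlap for either gene, with Lrp5 higher (0.31, SE 0.15, adjusted p = 0.380) and Lrp6 lower in SI (-0.35, SE 0.14, adjusted p = 0.239), and without SI replicate 3 they were at 0.34 (SE 0.14, adjusted p = 0.168) and -0.37 (SE 0.15, adjusted p = 0.136). The ratio of Lrp6 to Lrp5 on the per-kb scale was 1.29 to 1.67 in LI and 0.758 to 1.66 in SI libraries.

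The likeness of other genes was measured for the 7 members with a mean of at least 5 CPM. Over the 18 libraries, among 10222 other genes of at least that mean, the 3 most like Fzd7 by Pearson's r of log2 CPM were Nfia (0.992), Lgr5 (0.983) and Clca4 (0.977). For Fzd5 they were Map3k6 (0.921), Xpnpep1 (0.918) and Nbas (0.916), and for Fzd1 Foxred2 (0.971), Cntln (0.966) and Tmeff1 (0.961). For Fzd6 they were Dcakd (0.920), Hopx (0.913) and Pck2 (0.911), and for Fzd8 St3gal5 (0.947), Hoxa10 (0.945), a homeobox gene of the posterior body, and Nudt14 (0.943). For Lrp5 they were Pkp4 (0.897), Jade2 (0.872) and Rabgap1 (0.862), and for Lrp6 Ubap1 (0.895), Pgap1 (0.883) and Gk5 (0.877). Among the members themselves, r was 0.74 for Fzd6 with Fzd7, 0.75 for Fzd1 with Fzd8 and -0.77 for Fzd1 with Fzd5. These values describe libraries that share groups and replicate numbers and include SI replicate 3, and no test was made on them.

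**Figure D5:**
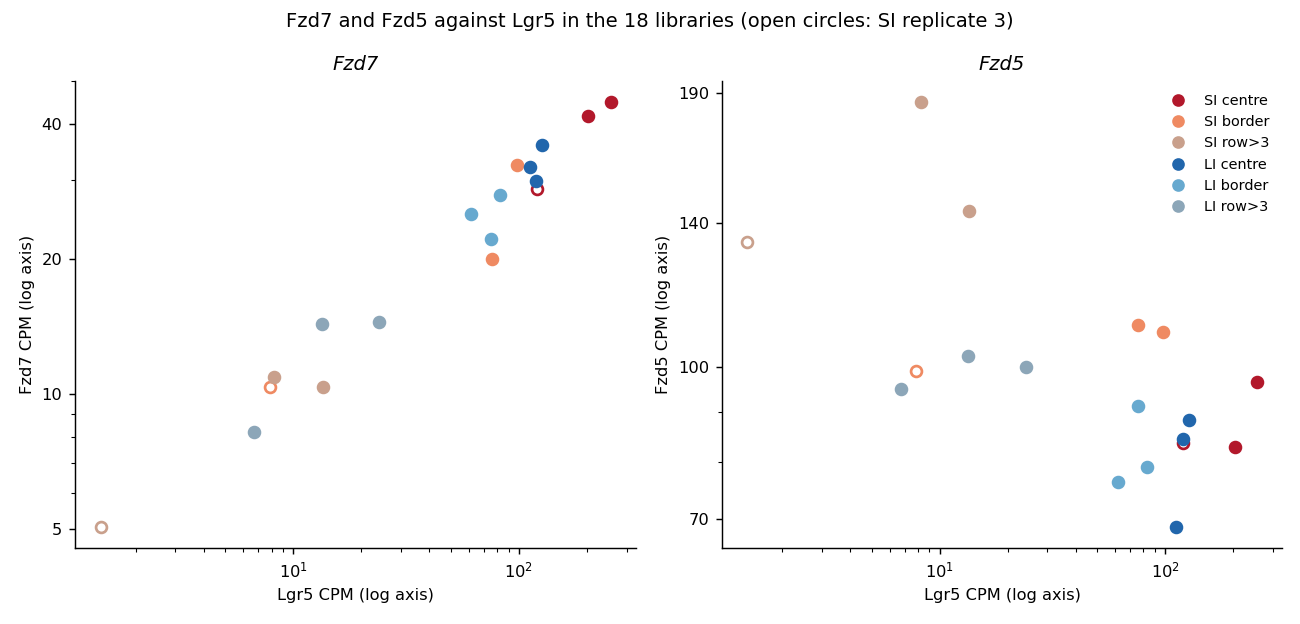
Fzd7 (left) and Fzd5 (right) against Lgr5 in CPM, with log axes, in the 18 libraries coloured by group, and SI replicate 3 as open circles. Fzd7 was higher in libraries with more Lgr5 (r = 0.983), and Fzd5 is highest, at 134.1 to 185.8 CPM, in the SI row >3 libraries of low Lgr5. The spread of Lgr5 between levels was set by the sort on GFP from its locus.

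Other genes of Wnt reception were read from lists of the pathway, in the same fit, and their counts stand against the 13.2% of all genes called in SI row >3 against centre cells. In SI row >3 against centre cells, 11 of 14 beta-catenin target genes were lower and 0 higher, at a list median log2 fold change of -2.18 against 0.00 for all genes tested. Those with the smallest p were Ephb3 (-2.27), a receptor that positions crypt cells, Ascl2 (-3.68), the stem cell transcription factor, Myc (-1.49), Znrf3 (-1.50) and Rnf43 (-2.10). The R-spondin receptors and ubiquitin ligases had 3 of 5 lower (Lgr5, Rnf43 and Znrf3, which also stand in the target list) and 0 higher. Lower Lgr5 in row >3 cells was fixed by the sort on GFP from its locus, so its call is no finding in either list, and 2 of the other 4 genes here and 10 of the other 13 targets were lower. Of 14 other Wnt receptors and co-receptors tested 4 were lower and 0 higher, namely Sdc4 (-1.12), Cd44 (-2.39), Ror2 (-1.66) and Ptk7 (-1.06), of which Ror2 and Ptk7 serve planar cell polarity. Of 12 planar cell polarity partners 3 were lower, Celsr2 (-1.35), Vangl2 (-1.58) and Prickle1 (-1.93), and Prickle2 was higher (3.44).

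Of 12 genes of receptor maturation and modulation 3 were higher and 3 lower in SI row >3 cells. Shisa2, which holds Frizzled in the endoplasmic reticulum, was lower (-1.38), as was Apcdd1, a membrane inhibitor of Wnt (-3.91), while Tmem59 (0.94), which promotes the assembly of Wnt receptors, was higher. At means of 0.344 and 0.396 CPM, Trabd2b was lower and Lypd6 higher. Of 14 antagonists 2 were called, a share near that of all genes: Sfrp5 (-3.66), a secreted Wnt binder, was lower and Kremen2 (3.06), a Dickkopf receptor, higher. The share was also near that of all genes for 18 genes of signalling next to the receptor, of which 1 was lower, the kinase gene Csnk1e (-1.24), and 1 higher, Daam1 (0.62). Without the SI replicate 3 libraries, where 17.1% of all genes were called, the counts for beta-catenin targets were again 11 lower and 0 higher, and those of R-spondin receptors and ubiquitin ligases again 3 and 0. Those of other receptors were 5 lower and 0 higher, of planar cell polarity 4 and 2, of maturation and modulation 3 and 2, of antagonists 2 and 1 (of 13 tested) and of signalling next to the receptor 1 and 2. Of the 29 genes called in these lists with all libraries 27 were called again, all but Shisa5 and Trabd2b, and 6 were added.

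In LI the same comparison called 1 gene of these 7 lists, Ephb3 (-1.47, SE 0.25, adjusted p = 0.0468), where 0.0187% of all genes were called. The list median of the 14 beta-catenin targets was -0.92, and 8 had an unadjusted p under 0.05, against 6.96% of all genes. For the difference of this step between the sites 0 of 14 targets passed the adjusted p. At an unadjusted p under 0.05 there were 6, against 6.74% of all genes. Without SI replicate 3 this test called 3 targets with a negative difference (SI minus LI) and 0 with a positive one, and its count over all genes is given in the last section. It also called 1 of 5 R-spondin receptors and ubiquitin ligases, a list that shares genes with the targets, and 1 of 12 planar cell polarity partners. Both had a negative difference, and 0 genes of these 2 lists had a positive one. Between the sites, Sfrp5 was higher in SI centre and border cells (adjusted p = 3.44e-05 and 9.61e-05), and Kremen2 was lower in SI centre cells (-2.76). Gpc6, a glypican with a mean of 0.810 CPM, was lower in SI centre and border cells, and Lef1, with a mean of 0.672 CPM, was higher in SI centre cells. In row >3 cells SI was lower for Cd44 (-2.09), Tspan12 (-1.13), a partner of Fzd4 in Norrin signalling, Sdc4 (-0.59), Shisa2 (-1.09), Vangl2 (-1.56), Celsr2 (-0.93), Myc (-0.96), Tcf7 (-1.29) and Ephb2 (-0.53), and higher for Prickle2. With all libraries 1 of 14 beta-catenin targets was higher in SI and 0 lower in centre cells, 0 were called in border cells, and 0 were higher and 3 lower in row >3 cells, where 1.99%, 1.76% and 4.09% of all genes were called. Without SI replicate 3, where 10.9%, 8.11% and 12.2% of all genes were called, 5 were higher and 0 lower in centre and likewise in border cells, and 2 higher and 4 lower in row >3 cells. The list genes called between the sites with all libraries (4, 2 and 10 at the 3 levels, from centre outward) were each called again in the same direction, and 12, 13 and 11 were added. The added calls come from a setting chosen by the LI genes in SI libraries, which favours larger site differences. Of the R-spondin receptors and ubiquitin ligases 0 of 5 were called with all libraries, and without SI replicate 3 Lgr4 and Rnf43 were higher in SI centre (0.58 and 1.25) and border cells (0.58 and 0.99) and Lgr4 in row >3 cells (0.62). Of the antagonists Sfrp5, Igfbp4 and Dkk3 were then higher in SI row >3 cells (0 with all libraries), and of signalling next to the receptor Daam1 and Grk6 (0 with all libraries). Planar cell polarity partners had 2 higher, Prickle2 and Celsr3, and 2 lower in row >3 cells (1 and 2 with all libraries), and other receptors 0 higher and 4 lower (0 and 3).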

How the data were processed

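RNA of sorted Lgr5+ cells was sequenced as paired reads after a stranded SMART-Seq preparation, in 18 libraries of 6 groups with 3 replicates each, of 8312093 to 31940965 counted reads. The authors aligned reads to mm10 (the submitters' processing notes name bcl2fastq and DESeq2) and deposited raw counts per gene (unit: count) and a second table of counts divided by 1 size factor per library (unit: signal). That table was checked against the counts (24814 genes whose counts sum to at least 2, largest relative deviation 5.33e-15) and used for nothing else. Annotation release and counting strand: not given in the sources used here. Other columns of per-sample values numbered 0.

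Raw counts were tested with edgeR 4.0.16 (R 4.3.3, limma 3.58.1): TMM factors, genes with a mean count above 0, glmQLFit with its robust option, a single model of all 6 groups (12 residual degrees of freedom), and Benjamini-Hochberg adjustment over 26717 genes at 0.05. The test was checked on simulated data. Levels between genes were set per kb of exon of GENCODE M21. Standard errors were derived from the fold change and its F statistic. All members were described, with a test where p was under 0.05 or where groups of at least 1 CPM did not overlap, and list genes where called (up to 5 per list and comparison, smallest p first). 1 gene list of the pathway is not reported here. Further fold changes of Fzd4, Fzd7, Fzd8, Lrp5 and Lrp6 outside this rule were added after their values were seen. Members, lists, rules and tests were chosen with earlier results of these data known. Alternatives were DESeq2 1.42.0, RLE factors, library size only, filterByExpr, no filter, the replicate number as a block, the groups compared only, each library left out, all SI replicate 3 libraries left out and, chosen after seeing the data, the legacy quasi-likelihood fit. Each gene's deviations from its group means correlated between equal replicate numbers within a site, over 10223 genes. The values were 0.358 to 0.783 (9 pairs) within SI and 0.444 to 0.684 (9 pairs) within LI. Between the sites they were 0.184 to 0.271 in border, 0.0196 to 0.314 in centre and -0.0296 to 0.332 in row >3 cells. The main fit took no libraries as pairs, and the replicate number entered as a block in alternatives only. Proteins were aligned with Biopython 1.88 (gap penalties 11 and 1), tables were made with pandas 2.3.3 and numpy 2.4.6, and figures with matplotlib 3.10.9 in Python 3.11.15.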

Additional observations from a re-analysis of the deposited data

Results flagged for a closer look

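The change of Fzd4 from centre to row >3 cells differed between SI and LI by a test of the difference itself when the replicate number was a block within site, with 1.98 log2 units more in SI (adjusted p = 0.0278, edgeR). Fzd4 measured 0.668 to 1.25 CPM in SI centre, 3.35 to 4.58 in SI row >3, 3.67 to 4.93 in LI centre and 4.03 to 5.47 CPM in LI row >3 libraries. The block called 2.32% of all genes in this test. Without the block the adjusted p was 0.206, and without SI replicate 3 it was 0.0962. The difference was called in 2 of 22 alternatives, and in 0 of the 12 with 1 library left out. In SI centre Fzd4 rests on 17, 28 and 15 reads.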

How the results depend on the processing

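Calls of single members depended on the processing more than their directions, as none of the 33 member fold changes recomputed under every alternative (those with p under 0.05 or without overlap) reversed. DESeq2 called 2 members in SI border against centre, 1 in LI row >3 against centre and 1 for the difference of that step between the sites. It called 1.25%, 0.707% and 1.01% of its genes there. The replicate block within site called 2, 1 and 1 members in these comparisons, and 2.32%, 2.59% and 2.32% of all genes. The block over all libraries gave 2 members (1499 genes of all) for SI against LI in centre cells, Fzd1 being added. With the groups compared only, 3 members (2559 genes) were called in SI row >3 against centre, 1 (243) in LI row >3 against centre, 1 (269) in SI against LI border and 1 (910) in row >3 cells, Fzd8. No filter gave 1 (321) in border and 1 (835) in row >3 cells, library size only 1 (1024) and the legacy fit 1 (891) in row >3 cells. Without the SI replicate 3 libraries 3 were called in centre and 4 in border cells between the sites, beside 10.9% and 8.11% of all genes. Leaving out 1 library gave 0 to 1 members (0 to 319 genes) in SI border and 3 to 4 (1971 to 3780) in SI row >3 against centre, and 0 to 1 (134 to 863) in border and 0 to 2 (379 to 1686) in row >3 cells between the sites. The replicate block changed no other count of members beyond 1.5 times. The cause of these changes was not tested. Fzd3, Fzd4 and Fzd9 rest on few reads (0 to 182 per library), and intervals cover the spread between libraries only. DESeq2 left some genes without an adjusted p, so its counts and those of edgeR, over 26717 genes, are over unlike sets. It called 209 of 16775 genes (edgeR 3) in SI border and 93 of 13162 (edgeR 5) in LI row >3 against centre. For the site difference of row >3 it called 149 of 14712 (edgeR 0). Between the sites in centre, border and row >3 cells it called 1241, 1212 and 1693 (edgeR 532, 470 and 1092). The block within site called 620 genes in SI border, 6103 (3518 without it) in SI row >3 and 692 in LI row >3 against centre. Without SI replicate 3, of 26181 genes tested, 252 were called in SI border against centre and 857 for the site difference of row >3. Between the sites 2854, 2122 and 3184 were called.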
